A study of Mus musculus with 36 samples.

Results

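Dcstamp, Ocstamp, Adam8, Cd47, Sirpa, Cd9, Cd81 and Sh3pxd2a are 8 mouse genes known for their part in the fusion of macrophage-lineage cells into osteoclasts, the multinucleated cells that resorb bone. They were taken by symbol out of 30284 genes in RNA-seq tables of 36 libraries. There were 6 groups of 6 libraries, from wild-type (WT) control mice and from mice that lack the microRNA gene Mir324 (null), all 20 weeks old. Bone marrow macrophages (BMM) were grown from leg bone marrow in M-CSF, a survival factor of this lineage, and then held for 5 days in M-CSF at 30 ng/mL. Libraries called OC came from the same kind of macrophages given M-CSF at 30 ng/mL and the osteoclast-inducing cytokine RANK-L at 50 ng/mL over those 5 days. Libraries called OB came from cells that grew out of collagenase-treated bone chips, which were then kept for 18 days in medium with β-glycerophosphate and ascorbic acid. The labels do not say which mouse or pool of mice gave a library, so the p-values below measure the spread between these libraries, which may be partly technical. The labels do not describe the null allele, and Mir324 itself was not analysed here. The deletion was therefore not checked in these libraries.

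Osteoclast precursors that receive M-CSF and RANK-L stop dividing, switch on a set of membrane proteins and fuse with their neighbours. DC-STAMP and OC-STAMP are multipass membrane proteins without which mouse precursors stay mononuclear. ADAM8, the CD47 and SIRPA pair, the tetraspanins CD9 and CD81 and the podosome scaffold TKS5 (gene Sh3pxd2a) act at the cell surface or at the actin-rich contacts where membranes meet.

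The deleted hairpin gives a pair of mature microRNAs, shown here because the null mice are labelled as lacking the gene that encodes them. The sequences are those of RefSeq (GRCm38.p6), 5′ to 3′, and the capitals mark the seed, bases 2 to 8, which pairs with target RNA.
mmu-miR-324-5p: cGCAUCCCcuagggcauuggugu
mmu-miR-324-3p: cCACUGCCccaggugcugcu
The complements of these seeds on a target are GGGATGC and GGCAGTG. Each was searched on the transcript strand in the longest annotated 3′ UTR of the 8 genes, and 0 of 8 held either one. Over the 20699 genes with an annotated 3′ UTR, 7.5% held GGGATGC and 12.8% held GGCAGTG. These counts describe letters in annotated UTRs and draw nothing about binding.

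Library totals ran from 14118972 to 26347581 estimated counts, and levels are given as CPM, the gene's share of a library's counts scaled to a fixed total. The labelled cell types were compared with marker lists of 8 genes each, as summed CPM. The osteoclast list holds Ocstamp itself, so it is not independent of that gene. Osteoclast markers summed to 29180 to 31750 CPM in WT OC against 348 to 713 CPM in the libraries labelled null OC, where Calcr stayed at or under 3 counts in every library. Macrophage markers summed to 6001 to 6379 CPM in WT OC against 13010 to 18030 CPM in null OC. The OB cultures held osteoblast markers at 44480 to 63730 CPM in WT and at 79430 to 98320 CPM in null. They also held osteoclast markers, at 3949 to 5048 CPM in WT and 4801 to 7301 CPM in null, and macrophage markers, at 5549 to 6485 CPM in WT and 3518 to 4240 CPM in null. In the BMM libraries macrophage markers summed to 15640 to 17820 CPM in WT and 16670 to 18750 CPM in null, and osteoclast markers to 102 to 137 CPM in WT and 242 to 317 CPM in null. That higher null sum was mostly Mmp9, with means of 0.336 CPM in WT BMM, 186 CPM in null BMM and 262 CPM in null OC. Of 6 osteoclast markers tested in BMM, 2 were higher and 3 lower in null, with a median log2 difference of -0.46. Over all genes 27% were higher and 25.3% lower. The sum of 8 neutrophil genes was higher in null macrophage-lineage libraries, at 6.47 to 17.3 CPM in null BMM against 0.143 to 0.393 CPM in WT BMM, and at 5.75 to 8.29 CPM in null OC against 0.0485 to 0.315 CPM in WT OC. In the null libraries nearly all of it was S100a8, and Ly6g, Elane and Ltf stayed at or under 3 counts in every library. Other markers were low: the highest sums in any library were 21.0 CPM for 6 dendritic cell genes, 23.9 CPM for 5 adipocyte genes and 1.52 CPM for 5 lymphocyte genes. The sum of 5 endothelial genes ran from 75.8 to 314 CPM, with the defining gene Tek at or under 3 counts in every library. Most of the sum was Pecam1, whose group means ran from 104 to 202 CPM. Of the 2 tested in BMM, Pecam1 was higher in null, by 0.53 in log2 (edgeR adjusted p = 0.0082). Kdr was lower there (-2.98, adjusted p = 4.04e-09), with a WT mean of 15.3 CPM and a null mean of 1.92 CPM. In bulk cultures, fewer cells of a type and less RNA per cell cannot be told apart.

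Dcstamp and Ocstamp were the members that RANK-L raised most in WT cells, and in null OC both stayed more than 100-fold below WT OC. Dcstamp (chromosome 15, 39745930 to 39760938, plus strand, GRCm38) was lowest at 0.378 CPM, median 0.966 and highest 1.41 in WT BMM. In WT OC its lowest level was 352 CPM, its median 378 and its highest 410. The WT groups did not overlap, and Dcstamp rose by 8.63 on the log2 scale, 397-fold (SE 0.36, edgeR adjusted p = 6.04e-16). In null OC it was lowest at 0.800 CPM, median 1.33 and highest 6.83. Every null OC library lay below every WT OC library, and the difference was -7.48 on the log2 scale, 179-fold (SE 0.34, edgeR adjusted p = 2.60e-10). The deposited tables list 1 transcript of this gene, against 6 in the annotation.

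Ocstamp (chromosome 2, 165393760 to 165400405, minus strand) followed the same course. Its WT BMM libraries ran from 0.343 to 1.14 CPM, median 0.566, and its WT OC libraries from 337 to 383 CPM, median 365. The rise in WT was 9.12 on the log2 scale, 556-fold (SE 0.49, edgeR adjusted p = 1.82e-13). In null OC the lowest library was at 0.599 CPM, the median at 1.39 and the highest at 11.3. The groups did not overlap, and null OC was lower by 139-fold, a log2 difference of -7.12 (SE 0.51, edgeR adjusted p = 5.62e-08). Per length, Ocstamp was the less abundant of the pair in WT OC, at 160 ± 11.8 TPM (a unit scaled for transcript length, SD, n = 6) against 322 ± 16.7 TPM for Dcstamp.

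With RANK-L, Dcstamp was still higher in null cells, and Ocstamp less firmly so, at null OC medians of 1.33 and 1.39 CPM. Dcstamp had 0 to 7 counts in each null BMM library, 0 counts in replicates 3 and 4, and 11 to 91 counts in each null OC library. Its null RANK-L difference was 3.65 in log2 (SE 0.65, edgeR adjusted p = 0.00214), and the groups did not overlap. For Ocstamp the null groups overlapped, with 0.343 to 0.966 CPM in BMM, and the difference was 1.99 (SE 0.62, edgeR adjusted p = 0.0388). This Ocstamp call was lost without a low-count filter (adjusted p = 0.0677), with limma-voom (1.13, adjusted p = 0.119), with a correction for length and GC content (1.88, adjusted p = 0.0692) and without null BMM replicates 2, 3, 4 or 5, each left out in turn. The interaction, that is the null response minus the WT response, was -4.99 for Dcstamp (SE 1.30, edgeR adjusted p = 0.00260) and -7.12 for Ocstamp (SE 1.04, adjusted p = 4.56e-06).

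**Figure D1:**
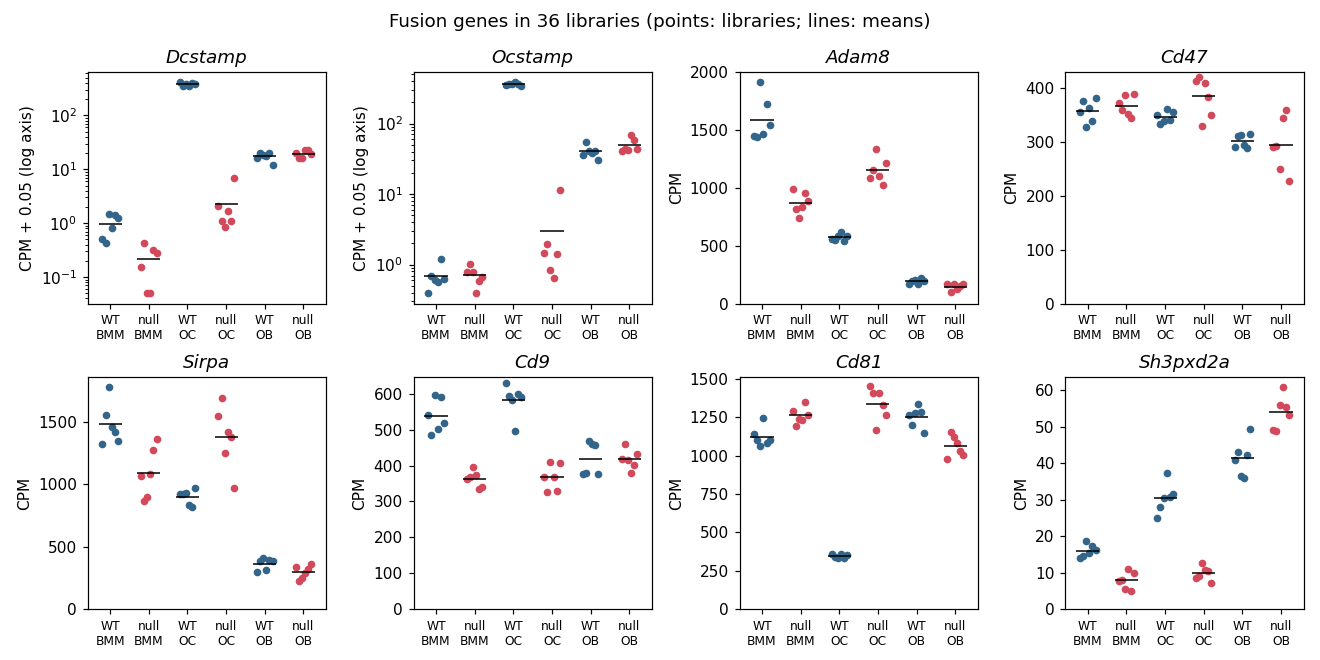
Levels of the 8 genes in each library, in CPM, with 6 libraries per group and a line at each group mean; blue is WT and red is null. Dcstamp and Ocstamp are drawn on a log axis after adding 0.05 CPM, the other panels start at 0, and the WT OC libraries of Dcstamp sit between 352 and 410 CPM while those of null OC sit between 0.800 and 6.83 CPM.

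One null OC library, replicate 6, stood apart for both genes. It held 6.83 CPM of Dcstamp and 11.3 CPM of Ocstamp, where the other 5 held 0.800 to 2.05 CPM and 0.599 to 1.88 CPM. The same library was the highest of its group for 4 of 8 osteoclast markers: Ocstamp itself, Ctsk (221 CPM against 36.9 to 62.7), Acp5 (164 against 64.7 to 97.3) and Oscar (3.38 against 0.509 to 1.55). It was also the highest for 4 of 8 osteoblast markers. For Col1a1, a bone collagen chain, it held 181 CPM against 44.3 to 76.7. For Ibsp, a bone matrix protein, it held 37.3 CPM against 0 to 0.125. The others were Runx2 (5.63 CPM against 3.05 to 4.73) and Dmp1, which was at or under 3 counts in every null OC library. Of the remaining osteoblast markers, Sp7 and Bglap were at 0, Alpl lay within the range and Phex was lowest in replicate 6. Among 14 regulators of the fusion genes, replicate 6 was the highest for 4. It was the lowest for Tnfrsf11a, Nfatc1, Fos, Mitf and Traf6. Nfatc1 was at 53.05 CPM against 74.9 to 90.46, and the RANK-L receptor gene Tnfrsf11a at 26.34 against 31.2 to 34.26. So its osteoclast-related genes did not all move one way. Replicate 6 also had the lowest library total, 14118972 counts. The share of all genes for which replicate 6 was the highest was not computed. The part of these other transcripts in the Dcstamp and Ocstamp levels was not tested. Without replicate 6, null OC averaged 1.32 ± 0.50 CPM of Dcstamp and 1.21 ± 0.52 CPM of Ocstamp (SD, n = 5). The difference from WT OC then widened to -8.09 and -8.21 on the log2 scale. Without it the null RANK-L response was 3.03 for Dcstamp and 0.89 for Ocstamp (edgeR adjusted p = 0.000531 and 0.0303), and the interactions were -5.60 and -8.23.

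**Figure D2:**
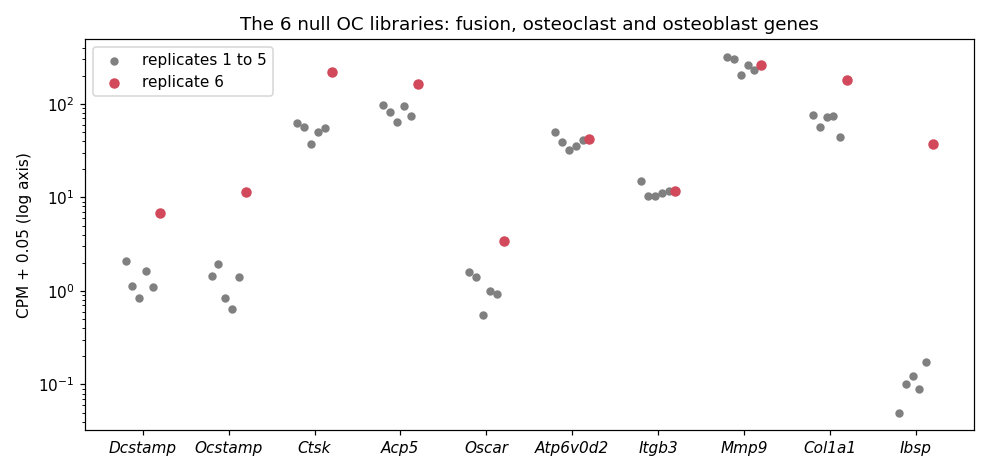
The 6 null OC libraries for Dcstamp, Ocstamp, 6 other osteoclast genes and the osteoblast genes Col1a1 and Ibsp, in CPM plus 0.05 on a log axis. Replicate 6 (red) is the highest library for Dcstamp, Ocstamp, Ctsk, Acp5, Oscar, Col1a1 and Ibsp, and lies within the range of the other 5 for Atp6v0d2, Itgb3 and Mmp9.

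In the macrophage cultures kept without RANK-L, Dcstamp was lower in null, at 0 to 0.376 CPM, median 0.166, against 0.378 to 1.41 CPM in WT. The gene did not reach the low-count filter in that comparison and so was not tested there. With other filters it was tested and lower, by -2.47 without a filter (edgeR adjusted p = 0.00208) and -2.46 at a mean of at least 10 counts (adjusted p = 0.00196), and the ranges only just missed each other. Ocstamp in macrophages was at 0.631 ± 0.270 CPM in WT and 0.658 ± 0.210 CPM in null (SD, n = 6), a difference of 0.05 with a 95% interval of -0.59 to 0.69. At this depth, 6 to 24 counts per library, a difference smaller than that interval was not detectable.

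Both genes were also present in the OB cultures, where the genotypes did not differ by the test. Dcstamp ran from 12 to 20.2 CPM in WT OB, median 18.1, and from 16 to 23.1 CPM in null OB, median 19.8. The null difference was 0.16 (95% interval -0.09 to 0.41, edgeR adjusted p = 0.379). Ocstamp ran from 30.8 to 55.6 CPM in WT OB, median 39.1, and from 41.0 to 69.9 CPM in null OB, median 44.1, a difference of 0.30 (95% interval -0.01 to 0.61, adjusted p = 0.168). Without WT OB replicate 2, the highest of its group, Ocstamp passed at 0.41 (adjusted p = 0.047). The osteoclast markers given above were in the same libraries, and their part in these levels was not tested.

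Null OB therefore held more of both genes than null OC, the reverse of the order in WT. In WT cultures the OB level was below OC by 21.7-fold for Dcstamp (log2 -4.44, SE 0.24) and 8.96-fold for Ocstamp (-3.16, SE 0.29). In null cultures OB was higher than OC by 9.25-fold for Dcstamp (3.21, SE 0.28) and 19.0-fold for Ocstamp (4.25, SE 0.35). The groups did not overlap in these contrasts, with edgeR adjusted p from 1.03e-17 to 1.00e-11. The ratio of Ocstamp to Dcstamp per length was 0.497 ± 0.046 in WT OC, 1.2 ± 0.14 in WT OB and 1.32 ± 0.20 in null OB (TPM over TPM, SD, n = 6). The WT OC ratios, 0.442 to 0.565, lay below all 12 OB ratios, which ran from 1.04 to 1.62.

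Across all 36 libraries, the genes whose log2 CPM ran most like Dcstamp were Slc45a3 (Pearson r 0.975), Itgb3 (0.974), Ccr1 (0.969), Slc9b2 (0.967) and Mt3 (0.965). Itgb3 encodes the β3 integrin chain of osteoclasts and Ccr1 a chemokine receptor. For Ocstamp they were Mst1r (0.993), Mt3 (0.987), Car2 (0.980), Oscar (0.980) and Myo1d (0.977). Car2 encodes the carbonic anhydrase that supplies acid for resorption, and Oscar an immunoglobulin-like receptor of osteoclasts. Dcstamp and Ocstamp correlated with each other at 0.964. These values describe 6 groups of libraries with large gaps between them, and a gene that is high in WT OC and OB alone will score highly.

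Over the 8 genes, 6 changed with RANK-L in WT cells, where 60.5% of all 12671 genes tested did (edgeR adjusted p under 0.05). Dcstamp, Ocstamp and Sh3pxd2a rose, as 30.4% of genes did, and Adam8, Sirpa and Cd81 fell, as 30.1% did. In null cells 4 of 8 changed, against 12.9% of all genes, and all 4 rose: Dcstamp, Ocstamp, Adam8 and Sirpa. Over all genes 6.77% rose and 6.08% fell in null cells. The number of all genes called there, 1629, ran from 811 to 2143 with 1 library left out, and was 765 with the length and GC correction and a replicate block. The null count of members fell to 2 of 8 without a low-count filter, with the length and GC correction, and without null BMM replicates 2, 3 or 4. The response differed between genotypes for 6 of 8, against 51.4% of all genes. Cd47 and Cd9 were the exceptions, with interactions of 0.12 (95% interval -0.04 to 0.28) and -0.08 (-0.27 to 0.11). That of Cd47 passed with limma-voom (0.18, adjusted p = 0.0415) and with the length and GC correction (0.22, adjusted p = 0.0217). The RANK-L and genotype comparisons share libraries, so their counts are not independent of each other.

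**Figure D3:**
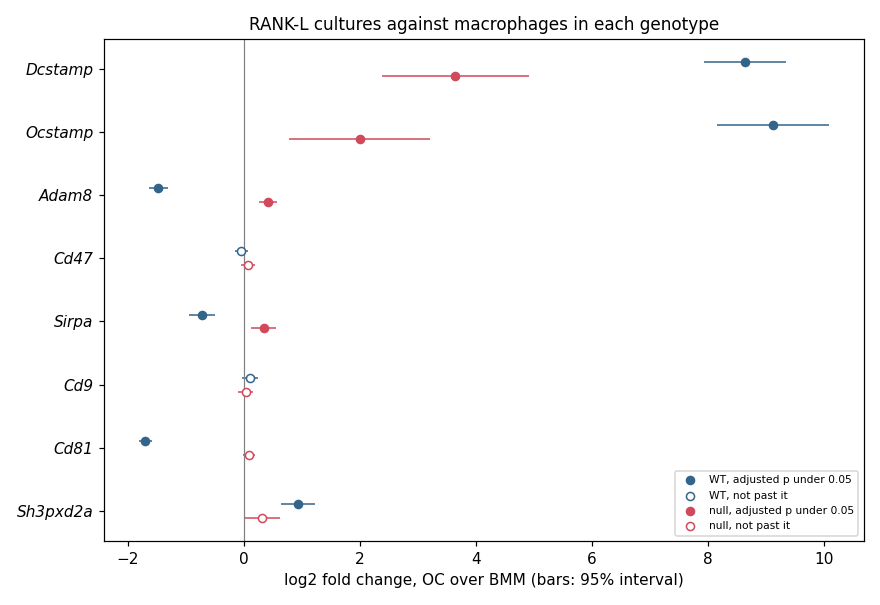
Log2 fold change of OC over BMM for the 8 genes in WT (blue) and null (red) cells, with bars for the 95% interval; filled points passed an adjusted p of 0.05. Dcstamp and Ocstamp lie at 8.63 and 9.12 in WT and at 3.65 and 1.99 in null, and Adam8 and Sirpa lie on opposite sides of 0 in the 2 genotypes.

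Adam8 encodes a membrane metalloprotease of myeloid cells that has been reported to stimulate osteoclast fusion. The gene (chromosome 7, 139978932 to 139992562, minus strand) was highest in WT BMM, from 1436 to 1912 CPM with a median of 1505. With RANK-L the WT libraries fell to between 539 and 616 CPM, median 573. That was a drop of 2.78-fold (log2 -1.47, SE 0.08, edgeR adjusted p = 3.62e-15), with no overlap. Null BMM libraries held 738 to 992 CPM, median 865, all below WT BMM, a log2 difference of -0.86 (SE 0.09, adjusted p = 8.08e-07). Of 8 macrophage markers, 6 were lower and 1 higher in null BMM, where 25.3% and 27% of all genes were. Their median was -0.51, against 0.02 over all genes, and among them were Mrc1 (-2.30), C1qa (-0.92) and Adgre1 (1.99). Their part in the BMM differences of Adam8, Sirpa, Cd9, Cd81 and Sh3pxd2a was not tested. Null OC libraries held 1022 to 1337 CPM, median 1128, all above WT OC and all above null BMM. They exceeded WT OC by 2.02-fold (log2 1.02, SE 0.06, adjusted p = 3.62e-10) and null BMM by 1.33-fold (0.41, SE 0.08, adjusted p = 0.00276).

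The genotype difference of Adam8 thus had opposite signs in BMM and OC, and its interaction was 1.88 (SE 0.11, edgeR adjusted p = 7.59e-14). In OB cultures Adam8 was lower than in the others, at 169 to 220 CPM in WT and 106 to 171 CPM in null, with overlap. The null difference there was -0.37 (SE 0.11, adjusted p = 0.0217), and it did not pass without WT OB replicate 5 (adjusted p = 0.0505) or null OB replicate 4 (adjusted p = 0.0661). The macrophage marker sum was lower in null OB as well, and its part was not tested. Of 8 Adam8 transcripts, Adam8-201 held 64.3% to 67.6% of the gene's TPM as group means and Adam8-202 23.7% to 28.4%. Neither share differed between genotypes in an exact permutation test.

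Sirpa and Cd47 encode a receptor and ligand pair: SIRPA on myeloid cells binds CD47 on the neighbouring cell and carries an inhibitory signal. Sirpa (chromosome 2, 129592835 to 129632228, plus strand) moved much like Adam8, with a Pearson r of 0.975 over the 36 libraries. WT BMM held 1327 to 1783 CPM, median 1441, and WT OC 821 to 971 CPM, median 923, with no overlap. The WT drop was 1.65-fold (log2 -0.72, SE 0.11, edgeR adjusted p = 3.30e-06). Null BMM held 871 to 1365 CPM, median 1074, which overlapped WT BMM and was lower by 1.35-fold (-0.43, SE 0.11, adjusted p = 0.00411). Null OC held 973 to 1690 CPM, median 1399, above all WT OC libraries by a small gap, and was higher by 1.54-fold (0.62, SE 0.10, adjusted p = 3.80e-05). The lowest of them was replicate 6, and the other 5 held 1254 to 1690 CPM.

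The rise of Sirpa with RANK-L in null cells, 0.34 (SE 0.11), was at the edge of the threshold (edgeR adjusted p = 0.0456) with overlapping groups. It did not pass in 9 of the fits that left out 1 library (differences from 0.27 to 0.42 over all such fits), among them those without null BMM replicates 2 or 3 (adjusted p = 0.121 and 0.122). The interaction was 1.07 (SE 0.16, adjusted p = 2.85e-06). In OB, Sirpa ran from 297 to 411 CPM in WT and from 226 to 364 CPM in null, and the difference of -0.29 did not pass (adjusted p = 0.0769). It passed with limma-voom (-0.37, adjusted p = 0.0240). Sirpa belongs to a family of near-identical receptor genes, and the estimated counts may be split among them, so its levels are uncertain.

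Cd47 varied least of the 8 genes. Its group means ran from 293 CPM in null OB to 383 CPM in null OC, and single libraries from 227 to 419 CPM. The gene lies on chromosome 16, 49800533 to 49915010, plus strand. In BMM the null difference was 0.05 (95% interval -0.07 to 0.16) and in OB -0.04 (-0.23 to 0.15), with edgeR adjusted p of 0.502 and 0.770. In OC it was 0.16 (SE 0.06, adjusted p = 0.0322) with overlapping groups, and 7 of the 12 fits without 1 library did not pass, for example without null OC replicate 2 (0.13, adjusted p = 0.0762). Per length the OC groups were at 281 ± 21.7 TPM in WT and 276 ± 28.4 TPM in null (SD, n = 6), so the order depended on the scale.

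The ratio of Cd47 to Sirpa within a library also differed between genotypes. The ratio of Cd47 TPM to Sirpa TPM, averaged over libraries, was 0.374 ± 0.050 in WT BMM and 0.531 ± 0.096 in null BMM (SD, n = 6). In OC the order was the other way, at 0.599 ± 0.050 in WT and 0.463 ± 0.074 in null. The genotypes overlapped in BMM, at 0.2845 to 0.4244 in WT and 0.4184 to 0.64 in null. They overlapped in OC as well, at 0.556 to 0.6634 in WT and 0.3899 to 0.5998 in null. Exact permutation tests, 2-sided and adjusted over 6 such tests, gave log2 differences of 0.50 in BMM (adjusted p = 0.00866) and -0.38 in OC (adjusted p = 0.0130). In OB the ratio was above 1, at 1.31 ± 0.15 in WT and 1.47 ± 0.33 in null, a difference of 0.14 that did not pass (exact permutation test, adjusted p = 0.392). In CPM the OB ratios were 0.84 ± 0.0985 in WT and 1.01 ± 0.24 in null, so their place around 1 depended on the scale. The deposited tables list 2 transcripts of Cd47, against 10 in the annotation. Cd47-202, of 867 bases, held 72.1% of its TPM in WT OB and 69.7% in null OB. The BMM and OC differences had opposite signs, and the difference between them was not tested.

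The tetraspanins Cd9 and Cd81 encode closely related membrane organisers that have been described as restraining macrophage fusion when both are present, while CD9 has also been described as promoting osteoclast formation. Cd81 (chromosome 7, 143052739 to 143067934, plus strand) showed the largest RANK-L response of the 6 members other than Dcstamp and Ocstamp. WT BMM held 1064 to 1247 CPM, median 1104, and WT OC 330 to 361 CPM, median 348. The drop was 3.25-fold (log2 -1.70, SE 0.06, edgeR adjusted p = 9.35e-20). In null cells no drop was seen, with 1193 to 1350 CPM in BMM, median 1252, and 1164 to 1455 CPM in OC, median 1368. The null response was 0.09 with a 95% interval of -0.02 to 0.20, and the interaction was 1.79 (SE 0.08, adjusted p = 1.43e-16).

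Cd81 was therefore 3.89-fold higher in null OC than in WT OC (SE 0.06 on the log2 scale, edgeR adjusted p = 3.22e-14), with a wide gap between the groups. The lowest null OC library, at 1164 CPM, was above the highest WT OC library, at 361 CPM. In BMM the null libraries were slightly higher, 0.18 (SE 0.06, adjusted p = 0.0156), with overlap. That call was lost with a correction for length and GC content (adjusted p = 0.0781) and without WT BMM replicate 3 (adjusted p = 0.0640). In OB, Cd81 was at 1150 to 1333 CPM in WT and 975 to 1156 CPM in null, a difference of -0.24 (SE 0.06, adjusted p = 0.00470). With that correction the OB difference was -0.10 (adjusted p = 0.228), and per length the groups were at 1352 ± 58.2 and 1299 ± 64.1 TPM (SD, n = 6).

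Cd9 (chromosome 6, 125460266 to 125494791, minus strand) differed by genotype and not by RANK-L. WT BMM held 486 to 596 CPM, median 530, and WT OC 497 to 632 CPM, median 593. Null BMM held 336 to 398 CPM, median 365, and null OC 327 to 410 CPM, median 368. In both cultures all null libraries lay below all WT libraries. The null difference was -0.56 in BMM (SE 0.07, edgeR adjusted p = 3.43e-06) and -0.65 in OC (SE 0.07, adjusted p = 4.32e-07). The RANK-L response was 0.11 in WT (95% interval -0.03 to 0.24, adjusted p = 0.186) and 0.03 in null (-0.11 to 0.16, adjusted p = 0.819). With limma-voom the WT response passed at 0.15 (adjusted p = 0.00906).

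In OB cultures Cd9 was at 420 ± 46.9 CPM in WT and 419 ± 28.1 CPM in null (SD, n = 6), a difference of -0.01 (95% interval -0.15 to 0.13). The sign there depended on the processing: with the length and GC correction it was 0.21 (edgeR adjusted p = 0.0262), and per length null OB was at 666 ± 40.7 TPM and WT OB at 588 ± 61.7 TPM. Cd9-201 and Cd81-201 each held over 98% of their gene's TPM in every library, so both genes were measured on 1 transcript.

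The ratio of Cd9 to Cd81 put WT OC apart from the other 5 groups. Cd9 exceeded Cd81 per length only in WT OC, where the TPM ratio was 2.19 ± 0.21, lowest 1.79 and highest 2.36 (SD, n = 6). The mean ratio was 0.626 ± 0.079 in WT BMM, 0.375 ± 0.036 in null BMM and 0.361 ± 0.062 in null OC. In OB cultures it was 0.435 ± 0.033 in WT and 0.514 ± 0.042 in null. Null minus WT was -0.74 on the log2 scale in BMM and -2.61 in OC, each at the smallest p that 6 libraries against 6 can give, 0.00217 (exact permutation test, adjusted p = 0.00649). In OB it was 0.24 (exact permutation test, adjusted p = 0.0130).

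**Figure D4:**
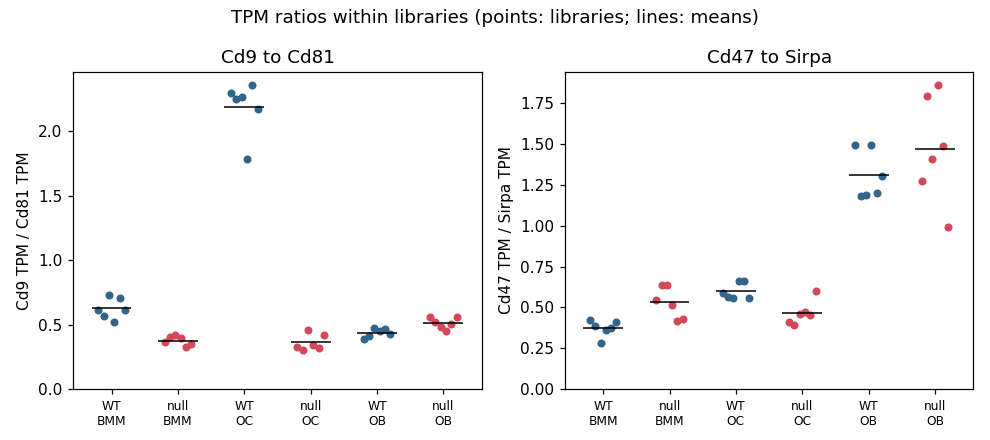
TPM of Cd9 over Cd81 (left) and of Cd47 over Sirpa (right) in each library, 6 per group, with a line at each group mean; both axes start at 0. The WT OC libraries of Cd9 to Cd81 sit between 1.79 and 2.36, above every other library, and the ratio of Cd47 to Sirpa is above 1 in the mean of both OB groups alone.

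Sh3pxd2a (chromosome 19, 47260174 to 47464401, minus strand) encodes TKS5, a scaffold of podosomes and invadopodia that Src phosphorylates. It was a low gene in the macrophage lineage. WT BMM held 14.1 to 18.6 CPM, median 15.8, and WT OC 24.9 to 37.4 CPM, median 30.7, with no overlap. The WT rise was 1.90-fold (log2 0.93, SE 0.15, edgeR adjusted p = 4.56e-06). Null BMM held 5.06 to 11.1 CPM, median 7.88, and null OC 7.20 to 12.5 CPM, median 9.81, all below the WT libraries of the same culture. The null differences were -1.01 in BMM (SE 0.17, adjusted p = 0.000118) and -1.63 in OC (SE 0.13, adjusted p = 6.80e-09).

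In null cells the RANK-L response of Sh3pxd2a was 0.32 (95% interval 0.01 to 0.63) and did not pass (edgeR adjusted p = 0.176). The edgeR p before adjustment was 0.0531, so this interval, from a normal quantile, is somewhat too narrow. The interaction was -0.61 (SE 0.22, adjusted p = 0.0205), and it did not pass without null BMM replicate 4 (-0.49, adjusted p = 0.0533). The OB cultures had the highest levels, 36.1 to 49.3 CPM in WT, median 41.7, and 48.9 to 60.9 CPM in null, median 54.4, and these overlapped at their edges. The null difference in OB was 0.38 (SE 0.08, adjusted p = 0.00258), but with the length and GC correction the sign turned to -0.08 (adjusted p = 0.469). Its transcripts Sh3pxd2a-201 and Sh3pxd2a-202, 10464 and 10380 bases in the deposited tables, were not separated reliably: within WT BMM the share of Sh3pxd2a-201 ran from 0.003% to 87.3%.

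Between genotypes, 5 of the 7 members tested in BMM differed, where 52.4% of all 11935 genes did (edgeR adjusted p under 0.05). Adam8, Sirpa, Cd9 and Sh3pxd2a were lower in null, as 25.3% of genes were, and Cd81 higher, as 27% were. In OC all 8 passed, against 65.5% of 12129 genes: Dcstamp, Ocstamp, Cd9 and Sh3pxd2a lower, with 33.1% of genes, and Adam8, Cd47, Sirpa and Cd81 higher, with 32.4%. In OB 3 of 8 passed, Adam8 and Cd81 lower and Sh3pxd2a higher, against 32.5% of 13614 genes, 16.9% lower and 15.5% higher. With the length and GC correction the genes called in OB fell from 4421 to 2292, and with a replicate block as well they fell to 1978 and the members called to 1. With so large a share of all genes called, these counts are not read as particular to fusion genes.

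**Figure D5:**
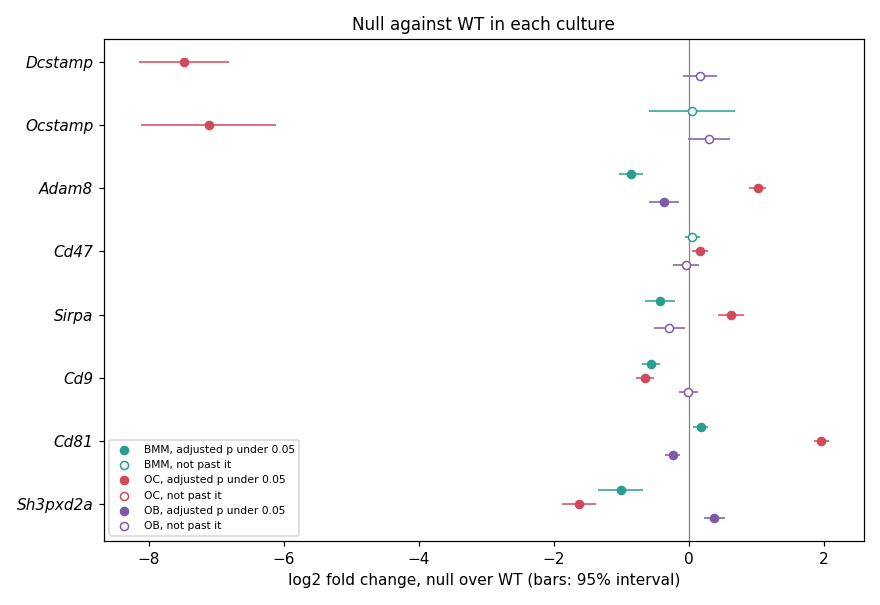
Log2 fold change of null over WT for the 8 genes in BMM (green), OC (red) and OB (purple), with bars for the 95% interval; filled points passed an adjusted p of 0.05, and Dcstamp in BMM was not tested. Dcstamp and Ocstamp in OC lie at -7.48 and -7.12, and the difference of Cd81 in OC is the highest of those drawn.

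Across cell types all 8 members differed between OB and BMM and between OB and OC in each genotype, where 76.8% and 77.9% of genes did in WT and 76% and 76.9% in null. Adam8 and Sirpa were lower in OB in all 4 contrasts, by 2.48-fold to 8.24-fold. Cd47 was lower in all 4 as well, by 1.15-fold to 1.31-fold, though in WT against OC it did not pass with RLE scaling (-0.13, edgeR adjusted p = 0.126). Cd81 in WT OB exceeded WT BMM by 0.16 (adjusted p = 0.00939), a call lost with the length and GC correction (0.049, adjusted p = 0.439) and without WT OB replicate 4 (adjusted p = 0.0552). Cd9 in null OB exceeded null OC by 0.18 (adjusted p = 0.0205), a call lost without null OC replicates 2 or 5 or null OB replicates 2 or 6. Sh3pxd2a was higher in all 4, from 1.36-fold against WT OC to 6.84-fold in null against BMM. The OB minus OC contrast differed between genotypes for 7 of 8 (55.3% of genes), all but Cd47, and the OB minus BMM contrast for 5 of 8 (45.8% of genes), Dcstamp, Adam8, Cd9, Cd81 and Sh3pxd2a.

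By group mean, Adam8 and Sirpa shared 1 order of levels, with WT BMM first, null OC next, then null BMM, WT OC, WT OB and null OB. Dcstamp and Ocstamp were highest in WT OC, then null OB, WT OB and null OC, with both BMM groups last. Within those orders WT OB and null OB overlapped for all 4 genes. Null OC overlapped WT BMM for Dcstamp and both BMM groups for Ocstamp, and the BMM groups overlapped each other for Ocstamp. For Sirpa, WT BMM overlapped null OC, null OC overlapped null BMM, and null BMM overlapped WT OC, while WT OC did not overlap WT OB. For Adam8 no other neighbours overlapped. Cd81 ran from null OC through null BMM, WT OB, WT BMM and null OB down to WT OC, and only WT OC stood clear of all the others.

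Of 15 other genes with a known part in fusion, 12 were tested in null against WT OC. There 6 were higher and 5 lower, where 32.4% and 33.1% of all genes were, with a median of 0.13 against -0.03 over all genes. Atp6v0d2, a proton pump subunit needed for fusion, was at 1497 ± 55.4 CPM in WT OC against 40.2 ± 6.30 CPM in null OC (log2 -5.21, edgeR adjusted p = 1.39e-16). Siglec15, a sialic acid receptor that pairs with DAP12, was at 31.7 ± 1.79 CPM in WT OC against 0.118 ± 0.105 CPM in null OC (-7.88, adjusted p = 5.18e-14). Cd36, a scavenger receptor, was at 213 ± 14.0 CPM in WT OC against 1478 ± 99.9 CPM in null OC (2.80, adjusted p = 8.24e-16). In null BMM, Atp6v0d2 was lower as well (-1.14, adjusted p = 7.86e-08), while Cd36 did not pass (0.07). With RANK-L in WT, 5 of 13 rose and 7 fell (30.4% and 30.1% of all genes), and in null 4 rose and 1 fell (6.77% and 6.08%).

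Of 14 regulators of the fusion genes, 8 were lower and 5 higher in null OC, with a median of -0.55, where 33.1% of all genes were lower and 32.4% higher. Oscar was at 336 ± 8.43 CPM in WT OC against 1.44 ± 1.02 CPM in null OC (log2 -7.90, edgeR adjusted p = 5.19e-14), and the null mean includes the high replicate 6. Tnfrsf11a, which encodes the RANK-L receptor RANK, was at 134 ± 7.92 CPM and 31.3 ± 2.68 CPM (-2.09, adjusted p = 9.58e-14). Tnfrsf11a was also lower in null BMM, at 31.0 ± 3.04 CPM against 50.0 ± 7.61 CPM (-0.68, adjusted p = 4.69e-05). Irf8, a repressor of osteoclast formation, was at 32.9 ± 1.52 CPM in WT OC against 205 ± 25.4 CPM in null OC (2.65, adjusted p = 3.41e-14). In BMM, Irf8 was lower in null (-0.50, adjusted p = 1.98e-05).

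Among 10 other tetraspanins and tetraspanin partners, 6 were higher and 2 lower in null OC, with a median of 0.50 (32.4% and 33.1% of all genes). Cd53, a leukocyte tetraspanin, was at 294 ± 36.7 CPM in WT OC against 922 ± 23.9 CPM in null OC (log2 1.66, edgeR adjusted p = 5.22e-12). Cd151 and Tspan3 were higher by 1.04 and 1.06. In null BMM these 2 were higher as well, by 0.49 and 0.60 (edgeR adjusted p = 1.78e-05 and 6.63e-06), while Cd53 did not pass there (0.10). In null OB, 0 of the 10 were higher and 5 lower (15.5% and 16.9% of all genes). Among 7 partners of SIRPA and CD47, 3 were higher and 2 lower in null OC, with the same shares over all genes as above. Fyb, an adaptor downstream of immune receptors, was at 226 ± 10.9 CPM in WT OC against 694 ± 21.9 CPM in null OC (1.62, adjusted p = 2.85e-14). Thbs1, the CD47 ligand thrombospondin-1, was higher by 3.34 at 23.6 ± 4.74 CPM in null OC, and Calr, calreticulin, was lower by -0.45. In null BMM, Fyb and Thbs1 were higher as well, by 1.09 and 1.45 (edgeR adjusted p = 2.87e-09 and 0.000948), and Calr did not pass (-0.08).

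Among 10 podosome partners of TKS5, 4 were higher and 4 lower in null OC, with a median of -0.07, where 65.5% of all genes were called in either direction. Src, the kinase that phosphorylates TKS5, was at 119 ± 4.04 CPM in WT OC against 8.85 ± 1.60 CPM in null OC (log2 -3.73, edgeR adjusted p = 1.01e-14). In BMM the order of Src was the reverse, at 0.917 ± 0.536 CPM in WT against 8.45 ± 2.15 CPM in null (3.22, adjusted p = 4.29e-07). In the OC cultures Cttn, the actin regulator cortactin, was at 119 ± 4.18 CPM and 20.4 ± 3.23 CPM (-2.52, adjusted p = 3.50e-13). Cttn was reversed in BMM too, being higher in null by 1.275 (adjusted p = 4.99e-06). In OC, Adam15, which binds Src-family kinases, was higher in null, at 120 ± 7.76 CPM in WT and 429 ± 37.2 CPM in null (1.85, adjusted p = 2.78e-13). Of 6 other ADAM proteases of macrophages, which include Adam15, 5 were tested in OC, and all 5 were higher in null, with a median of 0.87, where 32.4% of all genes were higher. Adam17, the TNF-releasing protease, was higher by 0.87 and Adam9 by 0.68. In null BMM, Adam17 was higher as well, by 0.59 (edgeR adjusted p = 1.94e-07), while Adam9 (-0.21) and Adam15 (-0.12) did not pass. With RANK-L in WT, 4 of the 5 tested there fell and 0 rose, where 30.1% of all genes fell. In these lists the macrophage and osteoclast marker sums of the OC libraries, given above, moved with genotype as well, and their part was not tested.

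No transcript share within the members passed the tests made. The 34 genotype comparisons of a transcript's share of its gene's TPM gave 0 with an adjusted p under 0.05. The smallest p of the exact permutation test for 6 libraries against 6 is 0.002165. Over 34 comparisons a transcript alone at that p would not pass, so equal transcript use was not shown. An unadjusted exact permutation p under 0.05 was seen for 3. They were Cd47-201 and Cd47-202 in OB, whose shares mirror each other, and Sirpa-214 in OC. The 12 RANK-L comparisons in WT gave 0 at either threshold. Cd47-202 held 72.1% of Cd47 in WT OB and 69.7% in null OB (exact permutation p = 0.00433, adjusted p = 0.0736), with Cd47-201 making up the rest. Sirpa-214 held 26.7% in WT OC and 36.5% in null OC (exact permutation p = 0.0325, adjusted p = 0.368). Calls appeared when single libraries were left out, 3 without null BMM replicate 3, 3 without null OC replicate 6 and 2 without WT OB replicate 6.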

How the data were processed

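The submitters measured RNA from 36 cultures with a low-input RNA library kit, per the labels' protocols. Per the submitters' processing notes, kallisto, DESeq2 and GRCh38 were used, but the identifiers in the tables are mouse Ensembl transcripts, so that build name cannot describe them. The authors deposited, per the file headers, an estimated count for each of 88198 transcripts in each library. The deposited TPM values in the same tables are scaled for transcript length by the authors. Counts and TPM were summed here per gene with the GENCODE M21 annotation of GRCm38, which matched 97.6% of transcripts, and unmatched transcripts held 0.61% to 0.96% of counts. Whether strand was used is not given in the sources used here. Genes overlapping a member on the opposite strand are annotated for Adam8, Cd9 and Cd81, and none is listed in the tables.

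Summed estimated counts were rounded and tested with edgeR 4.0.16 in R 4.3.3 (quasi-likelihood test, robust, filterByExpr, TMM scaling). The Benjamini-Hochberg adjustment covered every gene in a fit, and the threshold was 0.05. Genotype tests used the 12 libraries of a culture, RANK-L tests 24 libraries, and OB contrasts all 36. Intervals are 95%, from the SE and a normal quantile, which ignores the limited degrees of freedom, so they are somewhat too narrow. TPM ratios and transcript shares (mean share of at least 10%, gene TPM of at least 1) had exact permutation tests. CPM used TMM factors over 36 libraries, and correlations a prior count of 2. No pair of replicates agreed within sampling noise. On simulated data for null against WT in OC (12209 genes), the count test recovered 42.9% of genes changed by 0.5 in log2 and 100% of those changed by 1. At 0.5 it recovered 27.1% for the RANK-L interaction and 13.6% for the OB minus BMM interaction. Each simulation changed 200 genes and gave every gene the same spread. In the OC libraries 65.5% of genes were called, so these shares do not measure the recovery of the tests reported here.

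The 8 members and all lists were chosen with earlier results of these data known. Named were all members, up to 3 genes per list with the smallest p in null against WT OC (at least 1 CPM), marker genes, and the 5 genes most correlated with Dcstamp and Ocstamp. BMM values of Src, Atp6v0d2, Cd36, Irf8, Cd53, Cd151, Tspan3, Fyb, Thbs1, Calr, Cttn, Adam9, Adam15 and Adam17 were added after they were seen. Alternatives were RLE scaling, other low-count filters, DESeq2 1.42.0, limma-voom (limma 3.58.1), a replicate block, a length and GC offset (lowess span 0.3), 1 fit of all libraries, and leaving out each library. Replicate numbers in the labels are shared between groups, but same-numbered libraries did not deviate together (correlations -0.131 to 0.104), so they were not treated as pairs. Whether they share a mouse is not given in the labels.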

Additional observations from a re-analysis of the deposited data

Results flagged for a closer look

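In 48 checks of a group's most distant library (8 genes in 6 groups), 3 stood apart by Dixon's criterion, and chance alone gives about 1 in 20. They were null OC replicate 6 for Dcstamp, at 6.83 CPM, and for Ocstamp, at 11.3 CPM, and WT OC replicate 4 for Cd9, the lowest of its group at 497 CPM.

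The response to RANK-L differed between genotypes, by the edgeR interaction in log2 (null minus WT), for Dcstamp (-4.99), Ocstamp (-7.12), Adam8 (1.88), Sirpa (1.07), Cd81 (1.79) and Sh3pxd2a (-0.61). The difference of OB from OC differed between genotypes for Dcstamp (7.65), Ocstamp (7.41), Adam8 (-1.37), Sirpa (-0.90), Cd9 (0.66), Cd81 (-2.19) and Sh3pxd2a (2.02). The difference of OB from BMM differed for Dcstamp (2.65), Adam8 (0.50), Cd9 (0.57), Cd81 (-0.40) and Sh3pxd2a (1.40). The OB interactions add the OB libraries but share the OC or the BMM libraries with the RANK-L ones, so the 3 sets are not independent.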

How the results depend on the processing

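Of the single-gene and ratio results recomputed under other settings, 763 kept direction and side of the threshold, 24 lost their call, 9 gained one and 13 changed sign. With 1 library left out, these numbers were 1455, 29, 5 and 11. The cause of these changes was not tested. With limma-voom the sign turned for Ocstamp in null against WT BMM (-0.048, and -0.092 to 0.308 with 1 library left out) and for Cd9 with RANK-L in null (-0.025, and -0.004 to 0.061). In null against WT OB, Cd9 turned with RLE scaling (0.001), with DESeq2 (0.001), with the length and GC offset (0.206) and with that offset and the replicate block (0.211), and ran from -0.042 to 0.032 with 1 library left out. With the offset, Cd47 in OB turned to 0.014 (-0.112 to 0.021 with 1 library left out) and Sh3pxd2a in OB to -0.076 (-0.075 with the block). The offset also turned the RANK-L interaction of Cd9 (0.138, and 0.132 with the block) and the OB minus BMM interaction of Sirpa (-0.019, and -0.020 with the block).

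Genes called in null against WT OB fell from 4421 to 2292 with the offset and 1978 with offset and block, and members called from 3 to 1 with both. Genes called with RANK-L in null numbered 1629, against 1013 with limma-voom, 986 with the replicate block, 765 with block and offset, and 811 to 2143 with 1 library left out (841 without null BMM replicate 2, 811 without replicate 3, 949 without replicate 4 and 1046 without null OC replicate 3). Members called there fell from 4 to 2 without a filter and to 2 with the offset, and were 2 to 4 with 1 library left out. Transcripts with a different share numbered 0 to 3 with 1 library left out. No clear pairing by replicate number was seen: in each comparison of 2 groups at most 3 of 6 libraries correlated best with their own number. The labels do not say whether same-numbered libraries share a mouse, and such weak correlations cannot decide it. With the replicate block, the calls of Cd81 in null against WT BMM (adjusted p = 0.051), Cd47 in OC (0.059), Sirpa with RANK-L in null (0.108) and the Sh3pxd2a interaction (0.0517) were lost, all by edgeR, and the Cd47 to Sirpa ratio in OC had an adjusted exact p of 0.075. Depth limits Dcstamp and Ocstamp in BMM, where libraries held 0 to 29 counts.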
